A study of Homo sapiens with 6 samples.

Results

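The genes described here are those of the antioxidant programme run by the transcription factor NRF2, with the glutathione and thioredoxin systems. They form a list of 33 genes, and each was found by its symbol among the 21463 genes of the tables. The list was chosen with earlier results of these data known, so shares of members set beside those of all genes are descriptions. Messenger RNA was sequenced from HCC827, PC9 and H1975, 3 human EGFR-mutant non-small cell lung cancer lines. Every line gave 1 parental library labelled sensitive and 1 library of a subline labelled resistant, making 6 libraries. The EGFR change is labelled E19Del in HCC827 and PC9, and gefitinib, a first-generation EGFR kinase inhibitor, was used to select their sublines. H1975 carries L858R and T790M, and osimertinib, which binds EGFR covalently and was developed against T790M, was used to select its subline. Per the labels, selection took 90 days at increasing concentrations, and IC50 values were 0.016 to 0.07 µM in parental lines and 4.288 to 12.485 µM in sublines. Parental cells were not treated, all lines grew in the same medium, and the labels do not say whether a subline is a clone or whether drug was present at harvest. With 1 library per line and state, a ratio within a line has no replicate and is given without a p-value; where the states are compared, each of the 3 lines counts as a replicate.

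NRF2, the product of NFE2L2, is held by KEAP1, which passes it to a ubiquitin ligase for degradation. When electrophiles or oxidants modify KEAP1, or when the autophagy adaptor SQSTM1 (p62) binds it, NRF2 accumulates, pairs with a small MAF protein such as MAFG and binds antioxidant response elements near its target genes. The targets import cystine, build and recycle glutathione, reduce peroxides and thioredoxin, supply NADPH and clear quinones, haem and iron. In lung cancer this programme is known for mutations that keep it constantly on, and for its place in resistance to cytotoxic drugs.

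The form of the response element that reads TGACTCAGC was looked for on both strands in the 1000 bases before each RefSeq gene start (GRCh38.p14), a property of the genes that does not depend on the read counts. Its first 7 letters are also the core of the AP-1 site. Of the 27 members with a RefSeq promoter entry, 6 held it (22.2%), against 1.71% of 27305 genes. The looser form TGACNNNGC, which includes the first, was found for 19 of 27 (70.4%), against 35.5% of all genes. The 6 members were NQO1, GSTP1, SLC3A2, SQSTM1, TALDO1 and GPX4. The sites of 5 of them follow, each on the strand on which it reads TGACTCAGC, with those letters in capitals. They are shown as the sequences that these members share. The list was drawn up around known NRF2 targets, so a raised share of response elements among its members is not independent of its making.
NQO1: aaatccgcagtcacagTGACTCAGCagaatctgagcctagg
GSTP1: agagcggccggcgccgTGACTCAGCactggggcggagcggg
SLC3A2: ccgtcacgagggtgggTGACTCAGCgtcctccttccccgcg
SQSTM1: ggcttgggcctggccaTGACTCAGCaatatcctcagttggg
TALDO1: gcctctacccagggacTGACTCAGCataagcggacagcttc
Distances are from the capitals to the RefSeq start. The NQO1 window is chr16:69726991-69727031 on the minus strand, and its capitals lie 447 bases before the start. That of GSTP1 is chr11:67583730-67583770 on the plus strand, 58 bases before the start. SLC3A2 has chr11:62881646-62881686 on the plus strand, 29 bases before it. SQSTM1 has chr5:179820537-179820577 on the minus strand, opposite to the gene and 344 bases before its start. TALDO1 has chr11:746495-746535 on the plus strand, 945 bases before its start. By the gene spans in the tables, the windows of GSTP1, SLC3A2 and SQSTM1 lie inside the gene, whose span begins further upstream, and those of NQO1 and TALDO1 lie outside it. A match of letters is a description of the sequence and does not show that NRF2 was bound.

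The libraries held 21222102 to 29366085 exon reads, of which 90.8% to 91.7% mapped uniquely. Levels are given in CPM, exon reads scaled to a common library size with TMM factors, and a count of 0 allowed up to 0.0982 to 0.145 CPM. Of 10 epithelial markers, all 10 were at 10 CPM or more in both PC9 libraries and in parental HCC827, 8 in resistant HCC827 and parental H1975, and 6 in resistant H1975. Their summed level was 14859 and 5535 CPM in parental and resistant HCC827, 9445 and 8144 in PC9, and 2837 and 1763 in H1975. EPCAM, an epithelial surface marker among them, was at 431 CPM in parental and 10.5 CPM in resistant HCC827, and at 26.5 and 0.458 CPM in H1975. The summed level of 8 mesenchymal markers was 176 and 2172 CPM in parental and resistant HCC827, 358 and 1334 in PC9, and 3764 and 4715 in H1975. Mitochondrial genes took 3.32% of reads in parental and 6.62% in resistant HCC827, and 4.67% to 6.86% in the other 4 libraries. The part of these differences in the results was not tested. Markers of other cell types were low: 6 leukocyte markers summed to 2.91 to 13.1 CPM (PTPRC at 0 reads in both H1975 libraries, CD3E in these and both HCC827 ones), 5 endothelial markers to 1.45 to 20.1 CPM (TIE1 at 0 reads in the parental libraries), and 6 fibroblast markers to 14.9 to 219.7 CPM, mostly the collagen COL1A1, with DCN at 0 to 0.112 CPM. In these bulk libraries, fewer cells of a type and less RNA per cell cannot be told apart.

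Before any selection, levels of these genes differed between the 3 parental libraries, and more members were highest in PC9 than in either other line. Of the 32 members with at least 10 CPM in 3 or more libraries, 20 (62.5%) had their highest parental level in PC9, against 32.3% of 9897 genes; 8 were highest in HCC827 (32.9% of all genes) and 4 in H1975 (34.8%). With 1 CPM added to each level, 7 of 33 members were at least 2-fold higher in parental PC9 than in both other parental libraries, against 6.94% of 11019 genes. They were SLC7A11, GCLC, GCLM, GPX2, PGD, MAFG and PIR. For GPX2 and MAFG, 17.4% and 31.4% of the exon reads mapped uniquely, so their levels are uncertain. SLC7A11, the cystine transporter that feeds glutathione synthesis, was at 368 CPM in PC9, 6.33 times its level in H1975 (58.2 CPM) and further above that in HCC827 (25.3 CPM). GCLC and GCLM, the catalytic and modifier subunits of the enzyme that commits cysteine to glutathione, were 3.41 and 3.5 times as high in PC9 as in the next line. PIR, an iron-binding nuclear protein, was at 99.6 CPM in PC9, 19.8 in H1975 and 13.8 in HCC827. UGDH, which makes the UDP-glucuronic acid used in conjugation, was the member highest in parental HCC827 by that margin (166 CPM, 2.23 times the next line; 1 of 33 members, 6.37% of genes), and HMOX1, the haem oxygenase, the one highest in H1975 (48.5 CPM, 3.03 times the next line; 1 of 33, 8.69%). Not every member followed this order. NQO1 was closer across the parental lines and highest in HCC827, at 444 CPM, beside 368 CPM in PC9 and 308 CPM in H1975. HMOX1 was lowest in parental PC9, at 8.84 CPM. Among the resistant libraries PC9 was again highest for 22 of 32 members, against 31.8% of all genes, HCC827 for 7 (33%) and H1975 for 3 (35.2%). These are single libraries of different lines, so the order is a description.

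**Figure D1:**
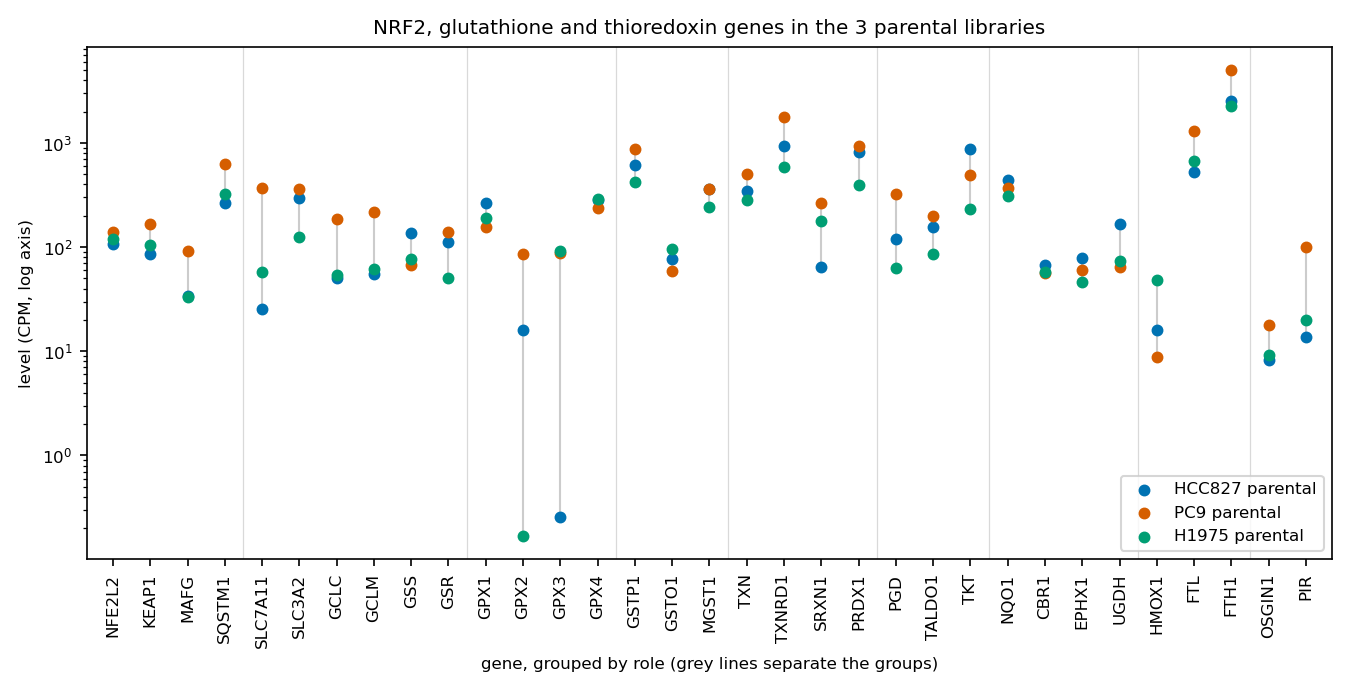
Level of each of the 33 genes (CPM, log axis) in the 3 parental libraries, genes grouped by role; each point is 1 library. SLC7A11, GCLC, GCLM and PIR show the PC9 point well above the others, the NQO1 points lie together between 308 and 444 CPM, and GPX2 and GPX3 are each near 0 in 1 line.

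Levels of different genes can be compared only per length, in TPM. On that scale FTH1, the ferritin heavy chain that stores iron, had the highest level among the members in all 6 libraries (3768 to 8578 TPM), and the light chain FTL came next in each (1515 to 7069 TPM). GSTP1 was at 1077 to 2019.5 TPM, PRDX1 at 845 to 1805 TPM and TXN at 592 to 1995 TPM. NFE2L2 itself was at 44.4 to 87.1 TPM and KEAP1 at 61.4 to 129 TPM. Among the lowest were OSGIN1 (2.52 to 15.1 TPM), SLC7A11 in HCC827 (6.59 and 3.55 TPM), GPX2 in H1975 (0.367 and 0.398 TPM) and GPX3 in HCC827 (0.281 and 1.33 TPM). Without ferritin the members summed to 8182 TPM in parental and 6712 TPM in resistant HCC827, to 10563 and 12218 TPM in PC9, and to 7342 and 6721 TPM in H1975.

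The comparison of resistant with parental cells asked whether the programme moved with resistance. In each line a few members stood apart and most were within 2-fold. GSR was at least 2-fold lower in 2 lines, HMOX1 and GPX3 were past 2-fold in opposite directions in different lines, and each other member past 2-fold was so in 1 line. A member counts here as apart when the log2 ratio of the 2 levels, with 1 CPM added to both, was 1 or more in size and 1 of the 2 libraries held at least 10 CPM. In HCC827, 6 of 31 measured members were lower (7.66% of all genes were) and 2 higher (10.5% of all genes). Resistant HCC827 is also the library with EPCAM at 10.5 CPM, a mesenchymal marker sum of 2172 CPM and a mitochondrial share of 6.62%, whose part in these counts was not tested. In PC9, 1 of 33 was higher (2.41% of all genes) and 0 lower (1.72%). In H1975, 4 of 31 were lower (3.22% of all genes) and 0 higher (1.75%). The median log2 ratio over the members was −0.14 in HCC827, 0.21 in PC9 and −0.08 in H1975, beside −0.01, −0.02 and 0.06 over all genes. Without TMM factors the medians over all genes and over the members were −0.11 and −0.24 in HCC827, and −0.02 and −0.17 in H1975. In PC9, 24 of 33 members were above 0, beside 4751 of 9907 genes. In HCC827 the number was 12 of 31, beside 5069 of 10290 genes, and in H1975 10 of 31, beside 5543 of 9932. Without TMM factors it was 10 of 31 in HCC827, beside 4346 of 10192 genes, and 25 of 33 in PC9, beside 4769 of 9850. In H1975 it was then 9 of 32, beside 4832 of 10087 genes, so the share of all genes above 0 depends on the scaling.

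**Figure D2:**
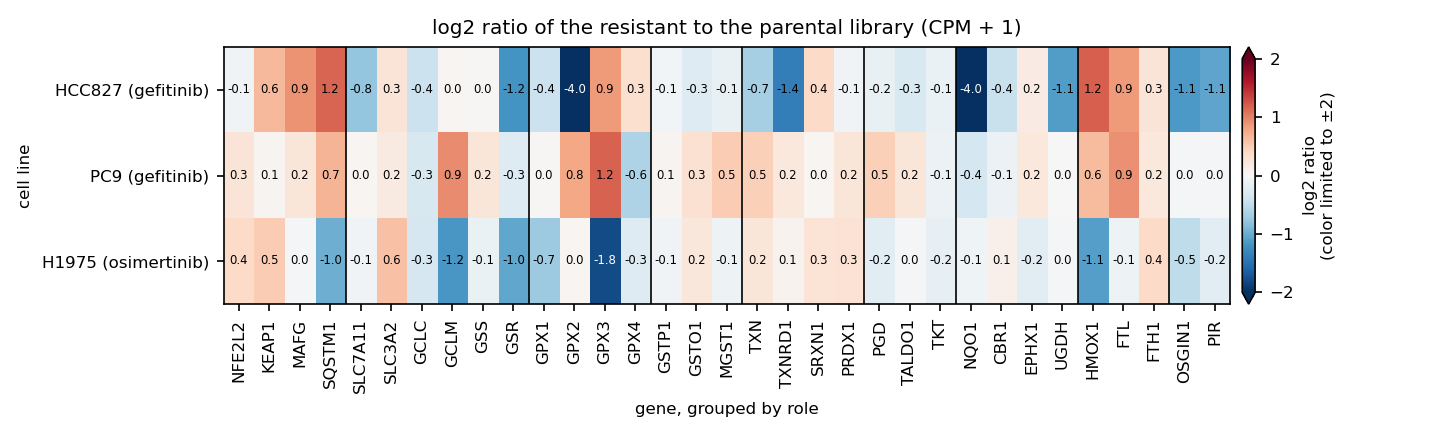
The log2 ratio of the resistant to the parental library (CPM with 1 added) for each of the 33 genes and 3 lines, red for higher and blue for lower in the resistant library, with the colour limited to ±2 and the value printed in each cell. NQO1 and GPX2 at −4.0 in HCC827 are the darkest cells, and SQSTM1, HMOX1 and GPX3 are red in both gefitinib lines and blue in H1975.

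Among the regulators, NFE2L2 (hg38 chromosome 2, 177227595 to 177392697, minus strand) differed little. It was at 107 CPM in parental and 102 CPM in resistant HCC827, at 139 and 165 CPM in PC9, and at 119 and 157 CPM in H1975, log2 ratios of −0.07, 0.25 and 0.39. The parental and resistant ranges overlapped. KEAP1 (chromosome 19, 10486120 to 10503741, minus strand), its inhibitor, was at 86.7 and 136 CPM in HCC827, 166 and 172 CPM in PC9, and 105 and 150.4 CPM in H1975. It was higher in each resistant library (log2 ratios 0.64, 0.05 and 0.51), with overlapping ranges. SQSTM1 (chromosome 5, 179806398 to 179838078, plus strand), which frees NRF2 by binding KEAP1 and is itself a target, went in different directions: 263 and 587 CPM in HCC827, 628 and 1011 CPM in PC9, but 322 and 162 CPM in H1975. Its log2 ratios were 1.16, 0.69 and −0.98. MAFG, the partner in binding DNA, had 0.89, 0.24 and −0.03, and 0.75, 0.06 and 0.15 from uniquely mapping reads, so its sign in H1975 differed with the reads counted. For 5 members under 80% of reads mapped uniquely: 31.4% of the MAFG reads, 60.1% of those of SQSTM1, 23.8% of CBR1, 17.4% of GPX2 and 3.94% of SRXN1. The span of SRXN1 overlaps a longer gene model on the same strand, MAFG overlaps SIRT7 on the same strand, and the others overlap genes on the opposite strand; whether the counting used strand is not given, and the levels of these 5 genes are uncertain.

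Of the 6 genes of cystine uptake and glutathione synthesis and recycling, 4 were higher in resistant PC9, 3 in resistant HCC827 and 1 in resistant H1975. With so few genes, none of these counts is read as apart from the shares of all genes above 0 given before. GSR, the reductase that recycles oxidised glutathione with NADPH, was lower in each resistant library: 112 and 48.4 CPM in HCC827, 139 and 116 CPM in PC9, and 50.6 and 24.2 CPM in H1975. Its log2 ratios were −1.19, −0.26 and −1.04, and the parental and resistant ranges overlapped. GCLC was also lower in each, with log2 ratios of −0.42, −0.32 and −0.34. GCLM, its partner subunit, differed in direction. It was at 55.7 and 57.2 CPM in HCC827, 215 and 416 CPM in PC9, and 61.5 and 26.8 CPM in H1975, log2 ratios of 0.04, 0.95 and −1.17; without TMM factors it was −0.06 in HCC827. Resistant PC9 was highest and resistant H1975 lowest of the 6 libraries, and the groups overlapped. SLC7A11 had log2 ratios of −0.77, 0.03 and −0.07, while SLC3A2, the heavy chain that carries it and other amino acid transporters to the membrane, had 0.25, 0.18 and 0.59. GSS, which completes glutathione, had 0.03, 0.25 and −0.13, the first of them −0.07 when scaled by library size alone.

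The glutathione peroxidases, which reduce peroxides with glutathione, include the member with the lowest level and others that differed in direction between lines. GPX2, the gastrointestinal form, was at 16.1 CPM in parental HCC827 and 0.0747 CPM in the resistant library, where 2 reads stood against 442, a ratio of 215 (parental over resistant) with a 95% counting interval of 59.1 to 1779.5. Its log2 ratio there was −3.99, and −2.19 from uniquely mapping reads. Of its reads in resistant HCC827, 0.0% mapped uniquely, so the size of the second ratio is limited by the 1 CPM added. In PC9 GPX2 was at 85.6 and 147 CPM. In H1975 it had 4 and 6 reads (0.169 and 0.196 CPM), near the limit of 3 counts. The gene was thus close to absent in 3 of the 6 libraries and abundant in both PC9 libraries. GPX3 (chromosome 5, 151020438 to 151028993, plus strand), the secreted form, was at 88.0 and 200.5 CPM in PC9 and at 91.8 and 25.8 CPM in H1975, log2 ratios of 1.18 and −1.79. In HCC827 it had 7 parental and 34 resistant reads (0.254 and 1.27 CPM), a ratio of 5.00 (2.18 to 13.4). GPX1, the cytosolic form, which the tables class as a polymorphic pseudogene, had −0.43, 0.02 and −0.72. GPX4, which reduces lipid peroxides and guards against ferroptosis, had 0.31, −0.61 and −0.26. The transferases, which attach glutathione to electrophiles, differed by less: GSTP1 had −0.05, 0.06 and −0.07, GSTO1 −0.27, 0.31 and 0.23, and MGST1 −0.14, 0.50 and −0.10.

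Of the 4 thioredoxin genes, 1 was past 2-fold: TXNRD1, the NADPH-dependent reductase of thioredoxin and a long-known NRF2 target. TXNRD1 was at 939 and 360.4 CPM in HCC827, 1790.4 and 2068 CPM in PC9, and 583 and 611 CPM in H1975, log2 ratios of −1.38, 0.21 and 0.07; the last was −0.0060 when scaled by library size alone. Resistant HCC827 had the lowest of the 6 levels and the PC9 libraries the highest. TXN, thioredoxin itself, had −0.66, 0.47 and 0.25. PRDX1, a peroxidase that thioredoxin regenerates, had −0.07, 0.24 and 0.29. SRXN1, which repairs overoxidised peroxiredoxins, had 0.38, 0.04 and 0.27 from all reads and 0.45, −0.19 and −0.02 from its few uniquely mapping reads. The 3 enzymes of the pentose phosphate pathway on the list, PGD, TALDO1 and TKT, were within 2-fold in every line. Their log2 ratios ran from −0.30 to −0.14 in HCC827, from −0.11 to 0.48 in PC9 and from −0.23 to −0.03 in H1975.

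NQO1 (ENSG00000181019, chromosome 16, 69706996 to 69726951, minus strand), the quinone reductase most used as a readout of NRF2, gave the largest difference by fold among members with over 100 reads in both libraries. It was at 444 and 26.0 CPM in HCC827, 368 and 287 CPM in PC9, and 308 and 291 CPM in H1975. In HCC827 that is 12226 against 696 reads, a level 17.1 times lower (counting interval 15.8 to 18.5). The log2 ratios were −4.04, −0.36 and −0.08. NQO1 was the member whose parental and resistant ranges did not overlap (1 of 32 members, 2.12% of all genes), although the gap between the lowest parental library and the highest resistant one was small. The other detoxification genes lay nearer 0 in HCC827. UGDH was at 166 and 75.5 CPM there, 64.9 and 64.8 CPM in PC9, and 74.2 and 72.7 CPM in H1975, log2 ratios of −1.12, −0.0021 and −0.03; the PC9 value was 0.0016 scaled by library size alone and 0.0086 with RLE factors. CBR1, a carbonyl reductase, had −0.44, −0.11 and 0.10, the last −0.21 from uniquely mapping reads and −0.0024 from TPM. EPHX1, an epoxide hydrolase, had 0.16, 0.21 and −0.21. The genes that share the strict response element with NQO1 had HCC827 log2 ratios of 0.25 (SLC3A2), 1.16 (SQSTM1), 0.31 (GPX4), −0.05 (GSTP1) and −0.30 (TALDO1).

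The 3 haem and iron genes were higher in both resistant gefitinib lines. HMOX1 (chromosome 22, 35380361 to 35394214, plus strand), which breaks down haem and is repressed by BACH1 as well as induced by NRF2, was at 16 and 38.0 CPM in HCC827, 8.84 and 14.3 CPM in PC9, and 48.5 and 22 CPM in H1975. Its log2 ratios were 1.20, 0.64 and −1.11, and the line with the highest parental level was the one with a lower resistant level. FTL, the ferritin light chain, was at 529.5 and 959 CPM in HCC827, 1311 and 2476 CPM in PC9, and 677 and 628 CPM in H1975, log2 ratios of 0.86, 0.92 and −0.11. FTH1 had 0.26, 0.21 and 0.38, and 80.3% of its exon reads were unique. PIR was at 13.8 and 6.17 CPM in HCC827, 99.6 and 96.7 CPM in PC9 and 19.8 and 17.0 CPM in H1975, log2 ratios of −1.05, −0.04 and −0.21. OSGIN1, an oxidative stress-induced growth inhibitor, was the member under 10 CPM in more than 3 libraries: 8.32 and 3.21 CPM in HCC827, 17.9 and 17.6 CPM in PC9, and 9.14 and 6.15 CPM in H1975.

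**Figure D3:**
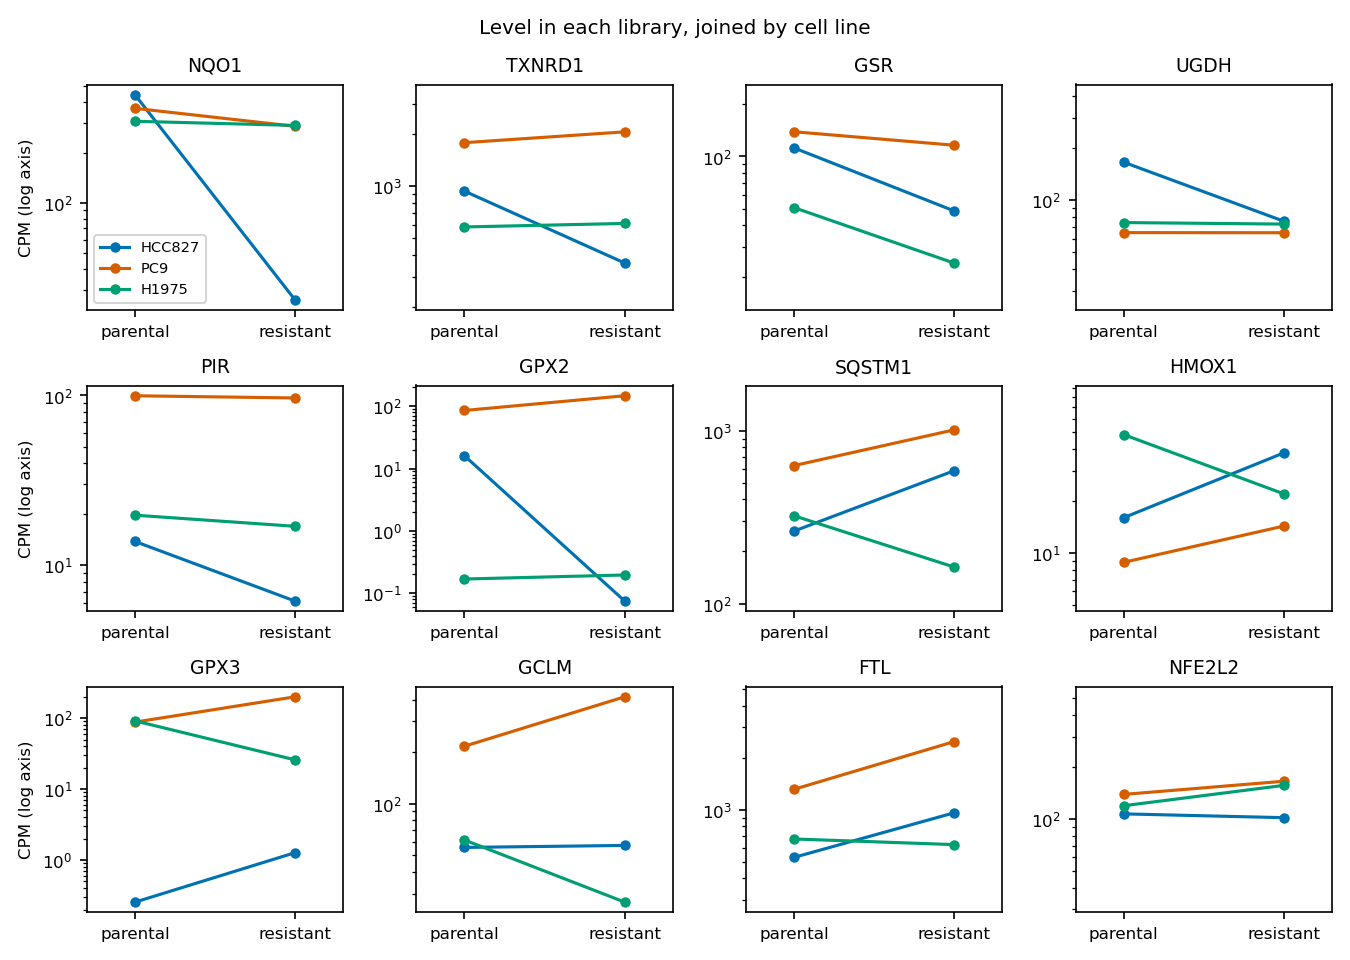
Level of 12 of the genes in each library (CPM, log axis with a range of its own in each panel), parental on the left and resistant on the right, 1 line per cell line and 1 library per point. NQO1 goes from 444 to 26.0 CPM in HCC827, and SQSTM1 and HMOX1 slope up in HCC827 and PC9 and down in H1975.

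Over the 3 lines, 6 of 32 members were lower in each resistant library (GCLC, GSR, TKT, NQO1, UGDH and PIR), against 13.9% of 9897 genes, and 4 were higher in each (KEAP1, SLC3A2, SRXN1 and FTH1), against 14.8%. These shares are near those of all genes. UGDH left the first set when scaled by library size alone or with RLE factors, and SRXN1 left the second with uniquely mapping reads. Without PC9 the number lower in the remaining lines was 12, and the number higher was 10 without HCC827 and 12 without H1975. With a line left out the rule is easier to meet, and the share of all genes under it was not counted. The quasi-likelihood test of edgeR, with the line as a block, called 0 of 33 members at an adjusted p of 0.05 and 0.0% of 13541 genes. DESeq2 called 0 members and 0.428% of genes. At an unadjusted p under 0.05 edgeR had 1 member, GSR, and 502 genes (3.71%), and DESeq2 had the same member and 923 genes (6.82%). The fitted log2 fold change of GSR was −0.85 ± 0.25 (SE, n = 3 lines) with an adjusted p of 0.903 in edgeR, and over the alternatives its adjusted p ran from 0.342 to 1.00. It was −0.37 ± 0.16 for GCLC (adjusted p = 0.903) and −0.38 ± 0.22 for GPX1 (0.903). For NQO1 it was −1.34 ± 0.94 (0.903).

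The next comparison set the change in the gefitinib-selected lines against that in the osimertinib-selected one. Of 32 members, 8 were higher in both resistant gefitinib lines and lower in resistant H1975, against 11.4% of all genes: MAFG, SQSTM1, GCLM, GSS, GPX3, EPHX1, HMOX1 and FTL. GCLM and GSS lose that pattern when scaled by library size alone or in TPM, and MAFG loses it with uniquely mapping reads. The test of the difference in edgeR called 0 of 33 members and 0.0% of genes, with 4 members and 434 genes (3.21%) at an unadjusted p under 0.05. The 4 were GPX3, with a log2 difference of 3.41 ± 0.60 (unadjusted p = 0.00383), HMOX1 with 2.11 ± 0.59 (0.0201), SQSTM1 with 1.91 ± 0.50 (0.0164) and GCLM with 1.69 ± 0.57 (0.0364), each with an adjusted p of 1.00 in edgeR. DESeq2 called GPX3 (log2 difference 3.45, adjusted p = 0.0067) among 0.569% of genes. In HCC827 this gene rests on 7 and 34 reads. This fit leaves 1 residual degree of freedom. As H1975 alone was selected with osimertinib, effects of drug, mutation and cell line cannot be told apart.

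Reads from introns, which unspliced transcripts contribute to, gave a second readout in the same libraries. Of the members with at least 50 intron reads in 1 of the 2 libraries, the intron and exon log2 ratios had the same sign for 21 of 25 in HCC827, 19 of 27 in PC9 and 18 of 27 in H1975. This agreement was not counted over all genes, so the numbers describe the members only. NQO1 had 129 parental and 7 resistant intron reads in HCC827, a log2 ratio of −4.20 (counting interval −5.54 to −3.11) beside −4.04 for exons. GSR had −1.39 (−2.23 to −0.60) and PIR −1.06 (−1.71 to −0.43), also close to their exon values. For these genes unspliced and spliced reads were lower by like amounts. For TXNRD1 the intron ratio was −0.46 (−0.60 to −0.32) beside −1.38, for UGDH −0.27 (−0.80 to 0.26) beside −1.12, and for SQSTM1 0.12 (−0.03 to 0.27) beside 1.16, and the exon difference was the larger of the pair. EPHX1 was opposite, with introns at −1.18 (−1.35 to −0.999) and exons at 0.16. In PC9, GCLC introns were at 1.25 (1.13 to 1.37), from 809 to 1807 reads, while its exons were at −0.32. GPX3 introns in HCC827 had 43 and 213 reads, more than its exons, which had 7 and 34. In H1975 its introns had 103 and 118 reads, a log2 ratio of −0.22 (−0.61 to 0.17), beside −1.79 for exons. Intron reads were scaled to each library's intron total, and transcripts of other genes that overlap an intron are counted in it. Exon ratios have 1 CPM added and intron ratios have nothing added, so the exon ratios of low genes are made smaller. GPX3 in HCC827 had an exon log2 ratio of 0.86 beside 2.32 for introns, while its exon fold with nothing added was 5.00.

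**Figure D4:**
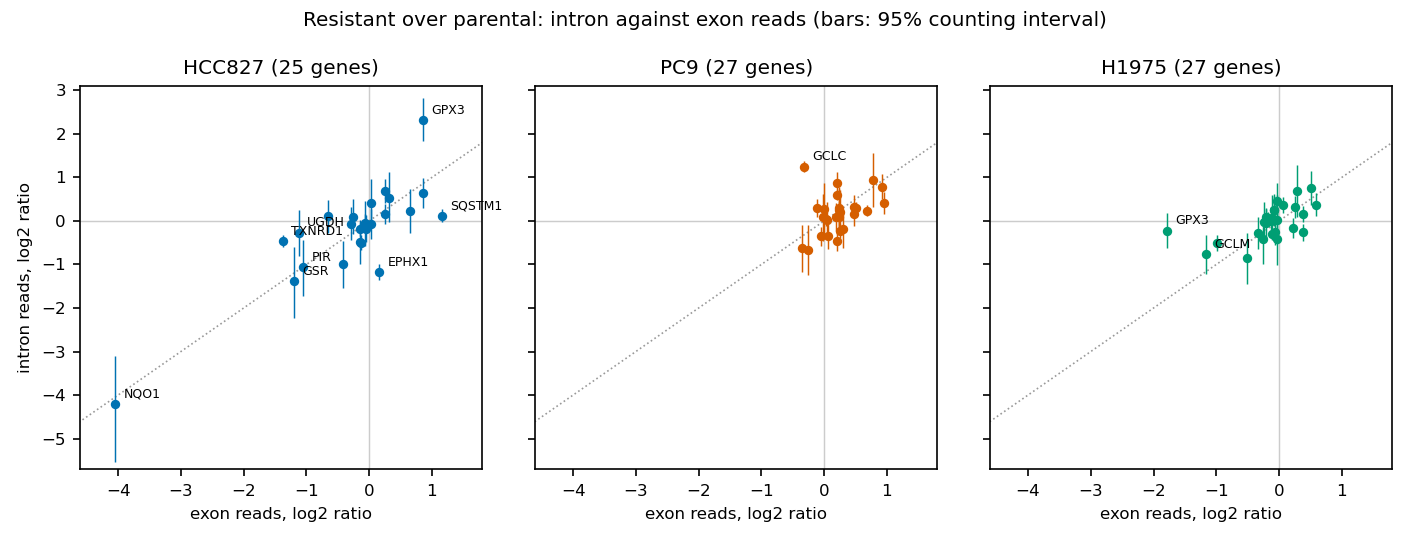
Log2 ratio of resistant to parental intron reads (vertical) against that of exon reads (horizontal) for members with at least 50 intron reads in 1 library of the line, with 95% counting intervals. The dotted line marks equal values. Exon ratios have 1 CPM added and intron ratios have nothing added, so genes of low level can lie off the line for that reason. NQO1 lies at −4.0 and −4.2 near the line in HCC827, and GCLC in PC9 and EPHX1 in HCC827 lie far from it.

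Other genes of the same pathways were taken from 4 further lists of 83 genes, 81 of them in the tables: other NRF2 regulators, other NRF2 targets, other glutathione genes and other thioredoxin and peroxide genes. In HCC827, 10 of 64 measured genes were at least 2-fold lower and 8 higher. The lower ones were led by ABCC2, an exporter of glutathione conjugates (97.6 and 3.40 CPM, log2 ratio −4.49), AKR1B10, an aldo-keto reductase (14.9 and 0.224 CPM, −3.70), and IDH1, a source of cytosolic NADPH (271 and 47.0 CPM, −2.50). The higher ones were led by MSRB3, a methionine sulfoxide reductase (0.654 and 19.9 CPM, 3.66), AKR1B1 (138 and 619 CPM, 2.16) and BACH2, a repressor related to BACH1 (1.96 and 11.7 CPM, 2.10). Both directions occurred among the targets, 5 lower and 4 higher of 18 measured.

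In PC9, 5 of 69 were at least 2-fold higher and 4 lower. GSTM3 and GSTM4, glutathione transferases of the mu class, had log2 ratios of 1.69 and 1.39, and AKR1C1 1.34 (479 and 1217 CPM). ALDH3A1, an aldehyde dehydrogenase, was at 199 and 25.1 CPM (−2.94), GSTZ1 at −1.28 and CBS, which makes cystathionine from homocysteine, at −1.17. BACH1, the repressor of HMOX1, was at 92.4 and 44.1 CPM (−1.05), while it was at 22.8 and 34.9 CPM in HCC827 (0.59) and at 46.5 and 57.5 CPM in H1975 (0.30). In H1975, 2 of 63 were higher, AKR1C1 (12.1 and 79.8 CPM, 2.62) and AKR1C3 (39.5 and 97.2 CPM, 1.28), and 2 lower, ABCC3, another exporter of conjugates (−1.36), and GLRX, glutaredoxin (−1.26). Members of the aldo-keto reductase and mu-class families are close in sequence, so reads can be split between them. The shares of all genes at these folds are those given for the 33 members.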

How the data were processed

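Whole-number read counts per gene were deposited by the authors for each sample with no normalization; per the file headers they are total exon, uniquely mapping exon and intron reads. The deposited TPM could be recomputed from the total exon reads and exon lengths (largest relative difference 1.53e-04). Trimmomatic, Bowtie2 and hg38 are named in the submitters' processing notes without version or role. Which tool counted the reads, with which annotation and strand setting, is not given in the sources used here. A series table of rounded TPM was not used.

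The members and lists were chosen with earlier results of these data known. Total exon reads were fitted with edgeR 4.0.16 in R 4.3.3 (quasi-likelihood test, TMM factors, filterByExpr with minimum count 10 and minimum total 15, 13541 genes, cell line as a block because both libraries of a pair come from 1 line, 2 residual degrees of freedom, common dispersion 0.149). Tests were two-sided and p-values were adjusted by Benjamini-Hochberg across the genes tested. Alternatives were RLE factors, 2 other filters, DESeq2 1.42.0, voom in limma 3.58.1, unique reads, no block and leaving out each line. Within a line, log2 ratios of TMM-scaled CPM with 1 CPM added were taken, and alternatives were other scalings, TPM, unique reads, other pseudocounts (0.25 and 5 CPM) and other level minimums. Ratios of few reads carry exact (Clopper-Pearson) 95% intervals from scipy 1.17.1, which cover counting error only. CPM in every library is given for NFE2L2, KEAP1, NQO1, HMOX1 and each member at least 2-fold apart in a line; FTL and OSGIN1 were added after their values were seen. Of the other lists, up to 3 genes per line and direction are named by size; BACH1 was added after its values were seen. 1 gene of these lists is not reported here. GSTT1 and SOD2 were not matched and are not analysed here.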

Additional observations from a re-analysis of the deposited data

Results flagged for a closer look

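GPX3 differed between the gefitinib-selected lines and H1975 when the difference of the 2 changes was tested with DESeq2: the log2 difference was 3.45 (adjusted p = 0.0067), with GPX3 higher in the resistant library of 2 of 2 gefitinib lines and lower in that of H1975. The edgeR test gave 3.41 with an adjusted p of 1.00, so the call rests on the tool. The HCC827 part rests on 7 and 34 reads.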

How the results depend on the processing

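No log2 ratio of 2-fold or more changed sign under another scaling, TPM, unique reads or another pseudocount. Sizes did move: of 99 member log2 ratios, 38 changed by more than their counting error when scaled by library size alone. In TPM 40 did, with unique reads 11 and with 5 CPM added 5, while with RLE factors or 0.25 CPM added all 99 stayed within it. With 5 CPM added, 2 members and not 4 were at least 2-fold lower in H1975, and with a level minimum of 50 CPM 1 and not 2 was higher in HCC827. The number of members higher in each resistant library (4 with all lines) was 10 without HCC827, 4 without PC9 and 12 without H1975, and the number lower (6) ran from 7 to 12. With fewer lines either rule is easier to meet, and the share of all genes under it was not counted. The edgeR test called 0 members under each alternative fit, the one with no replicate block included, where 0 genes passed as well (47 at an unadjusted p under 0.05 in edgeR); the numbers of the lines pair the libraries by origin, and the block changed no call. DESeq2 called 58 genes between states, where edgeR called 0, and 1 member for the difference between drugs. Leaving out a line was not run for that difference, which would have no residual degrees of freedom without HCC827 or PC9 and could not be formed without H1975. Depth limits GPX2 in H1975 and resistant HCC827, and GPX3 in HCC827.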

Other observations

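Beyond the 33 genes, 16 of 72 other NRF2-linked genes were at least 2-fold higher in parental PC9 than in both other parental libraries. The share of all genes was 6.94%. These lists too were chosen with earlier results of these data known, so the shares are descriptions. Genes such as ALDH3A1 and UGT1A6 are among the 72 through their PC9 level alone, so the count is not independent of how genes were kept. AKR1C1, a steroid and carbonyl reductase, was 39.5 times as high in parental PC9 as in the next parental line, AKR1C3 8.83 times and the small MAF protein MAFF 5.63 times. ALDH3A1 was at 199 CPM in parental PC9 and UGT1A6, a glucuronosyltransferase, at 125 CPM, while both had at most 0.0846 CPM in the other parental lines, under the level that a count of 0 allows. In parental HCC827, 2 of 72 genes stood highest in this way, against 6.37% of all genes: IDH1 (2.9 times) and CTH, the enzyme that makes cysteine from cystathionine (5.99 times). In parental H1975, 5 of 72 did (DPP3, GSTM4, GSTO2, TXNIP and MSRB3), against 8.69% of all genes. CTH was the one of the HCC827 pair that was higher in resistant HCC827, at 65.6 and 169 CPM.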
